A study of Homo sapiens with 19 samples.

Results

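The EED rescue line kept on doxycycline (DOX) was compared with wild-type (WT) H1, a human embryonic stem cell (hESC) line. The labels give 1 sample of the rescue with DOX and 2 samples of WT H1, 3 of the 19 samples in the series. In the rescue line both endogenous EED copies were knocked out in H1 cells that already carried a lentiviral EED under a DOX-responsive promoter, and clones were picked and kept on DOX, so that EED came from the transgene alone. WT H1 carried no transgene and no deletion, and the labels give it no DOX. The other samples used here for reference were H1 with EZH1 deleted (EZH1-/-, 2 samples), with EZH2 deleted (EZH2-/-, 2 samples) or with EED deleted and no rescue (EED-/-, 2 samples), and 6 samples of the same rescue line on days 8, 12, 16, 20, 24 and 28 after DOX was withdrawn. The title of the rescue sample with DOX also carries the day 28 mark of the last withdrawal sample. The study further holds lines without SUZ12 and without both EZH2 and EZH1, which entered only where all samples were compared.

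EED is the subunit of Polycomb repressive complex 2 (PRC2) that binds trimethylated lysine 27 of histone H3 (H3K27me3) and stimulates the methyltransferase subunit, EZH2 or EZH1, while SUZ12 holds the core together. In hESCs the mark covers promoters of silent developmental genes, such as the HOX clusters and lineage transcription factors. A conditional line of this kind should have PRC2 while DOX is present and lose it once DOX is removed, and the comparison with WT asks which transcripts of the DOX-kept line were off their WT level.

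Values were TPM, the share of a gene's transcripts among all transcripts after scaling for length, and differences were taken on the log2(TPM + 1) scale, which understates the change of low genes. A gene was measured when it reached a TPM of 1 in at least 1 of the 3 samples, which 15880 of 33382 genes did. It was called off WT when the rescue sample differed from each of the 2 WT samples in the same direction by at least 3-fold. With 1 rescue sample there is no test and no p-value, so each call describes that sample, and the spread of the rescue line on DOX is unknown. The 3 samples fall into 2 sets of files: the WT and knockout tables shared 1 set of gene names and the 7 tables of the rescue line another, which differed from it for 33 names. Between the rescue sample and WT alone, clone, transgene, DOX and file set therefore cannot be told apart. The withdrawal samples share all of these but DOX. TPM keeps no read depth, which is unknown here. The rescue sample had 19117 genes above 0, against 21244 and 21135 in WT.

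EED itself was at 108.54 TPM in the rescue sample and at 17.3 and 21.96 TPM in WT (mean 19.6 ± 3.30, SD, n = 2). On the log2 scale it was 2.42 above WT, and the rescue sample lay above each of the 18 others, the next highest being 31.56 TPM on day 28 after withdrawal. The 6 withdrawal samples ranged from 12.64 to 31.56 TPM and the EED-/- samples were at 14.25 and 22.36 TPM, both within the range of lines with intact EED. The transcript level thus did not register the knockout of the endogenous gene, and it does not show how much protein either line made.

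**Figure D1:**
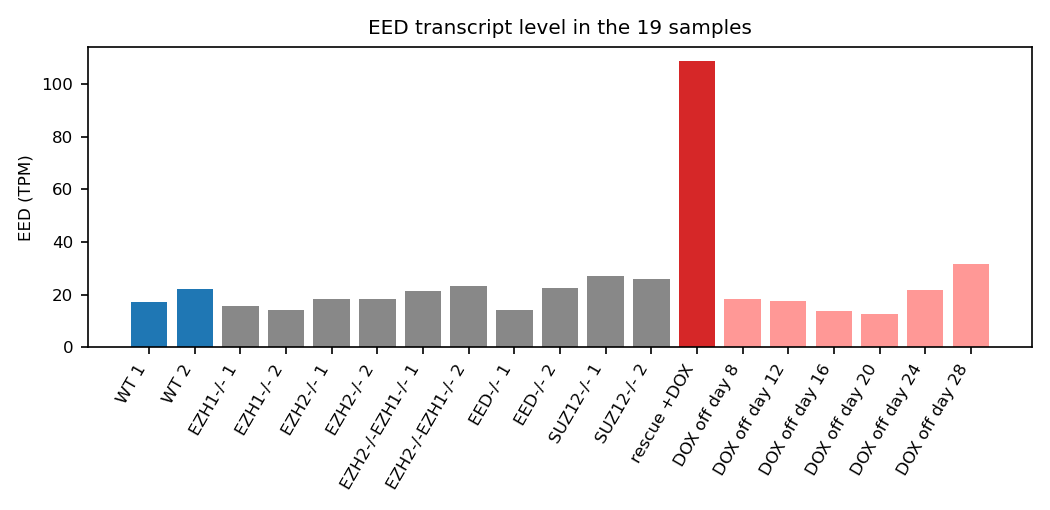
EED transcript level in TPM for each of the 19 samples, 1 bar a sample; blue bars are WT, the dark red bar is the rescue with DOX, light red bars are the same line after DOX withdrawal, and grey bars are the knockout lines. The rescue with DOX stands at 108.54 TPM, and each other bar is at 31.56 TPM or lower.

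The partners of EED were not called with it. EZH2, the main methyltransferase of hESCs, was at 36.26 TPM against 54.55 and 58.89 in WT, a difference of -0.63. SUZ12 was at 14.97 TPM against 25.21 and 27.89, a difference of -0.78, and the histone chaperone RBBP4 was at 113.15 TPM against 222.84 and 228.35, a difference of -0.99. EZH1, at 15.93 TPM, and RBBP7, at 128.69 TPM, were within 0.17 of WT on the log2 scale. After centring on GC content and length, as described below, the differences of EZH2, SUZ12 and RBBP4 were -0.10, -0.10 and -0.26, and the median of the 6 core genes moved from -0.34 to 0.07. None of these 5 was called, and EED was the only called gene of the 6 core subunits. Among 8 measured accessory subunits none was called. JARID2 and MTF2, which help to bring PRC2 to CpG islands, were at 52.33 TPM (119.24 and 106.14 in WT) and 32.59 TPM (64.59 and 67.64 in WT). PHF1, another Polycomb-like subunit, was at 58.54 TPM against 31.49 and 28.56.

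The 9 markers of undifferentiated hESCs were present in the rescue sample, between 54.09 TPM for NANOG and 2916 TPM for POU5F1. Their summed level was 5535 TPM, against 6936 and 7176 in WT, 7164 to 8083 in the 4 EZH1-/- and EZH2-/- samples and 627 to 7384 after withdrawal. Of 18 markers of other cell types, 5 reached a TPM of 1. These were KDR (38.46), MIXL1 (1.34), AFP (2.97), KRT7 (13.75) and NES (62.47), of which KDR, AFP, KRT7 and NES did so in both WT samples as well. CGA, MESP1 and T were listed at 0.

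The rescue sample had 58 genes higher and 284 genes lower than WT, 0.365% and 1.79% of the measured genes. By the same rule the EZH1-/- and EZH2-/- samples, each against the same 2 WT samples, had 68 to 150 genes higher and 27 to 85 lower, and the 2 WT samples differed 3-fold from each other for 27 genes in one direction and 20 in the other. The rescue sample therefore had fewer higher genes and more lower genes than any of these 4 samples, although it shares the WT samples with them. On days 8, 12 and 16 after withdrawal the same line had 433, 374 and 388 higher genes and 183, 114 and 187 lower. On days 20, 24 and 28 it had 1190, 1816 and 2438 higher and 419, 848 and 936 lower. Against WT sample 2 alone the counts of the rescue sample with DOX were 186 higher and 508 lower. Against WT sample 1 alone they were 96 and 366, since 1 reference is easier to differ from than 2. Against all 6 samples of WT, EZH1-/- and EZH2-/- they were 16 and 87.

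The median measured gene was 0.15 lower in the rescue sample than in WT on the log2 scale. Rescaling the 3 samples by their median ratio gave 82 higher and 209 lower genes, so the share of lower calls depends on the scale. The rank correlation of the rescue sample with WT (Spearman, across genes above 0 in either sample, a description) was 0.942 over 21980 genes and 0.936 over 21904 genes. Between the 2 WT samples it was 0.968, and between WT and the EZH1-/- and EZH2-/- samples 0.946 to 0.960. Between WT and the withdrawal samples it was 0.9253 to 0.9395 on days 8, 12 and 16. It was 0.8185 to 0.8768 on days 20, 24 and 28.

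**Figure D2:**
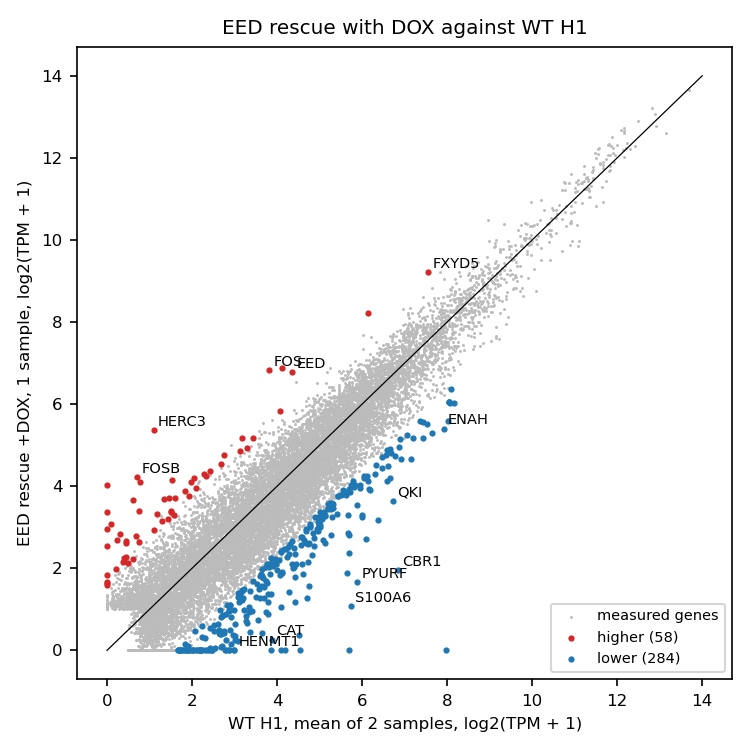
Level of each of the 15880 measured genes in WT H1 (horizontal, mean of 2 samples) and in the EED rescue with DOX (vertical, 1 sample), both log2(TPM + 1), with the line of equal levels. Red points are the 58 genes called higher and blue points the 284 called lower; S100A6, PYURF and CBR1 lie among the farthest below the line and HERC3 and FOS among the farthest above, and HERC3 and PYURF are uncertain as separate values.

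Differences from WT followed the base composition and length of the transcript. Across the 13441 genes that reached 1 TPM in each of the 3 samples, the difference had a rank correlation of 0.596 with the GC content of the longest annotated transcript and of -0.345 with its length. In the 16 samples other than WT and the rescue with DOX, the correlation with GC ran from -0.26 to 0.39, and the WT samples, set against each other, gave 0.222. Split into 10 groups by GC content, the genes of the group with the lowest GC (median 36.9%) had a median difference of -0.69 and those of the group with the highest (median 64.1%) of 0.47. The lower genes had a median GC content of 41.3% and the higher genes of 57.6%, beside 48.5% for the measured genes. After the differences were centred within bins of GC content and length, an alternative chosen after seeing the data, 64 genes were higher (0.407%) and 134 lower (0.852%), and these held 29 of the 58 and 113 of the 284. What part this trend has in the calls was not tested beyond this.

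**Figure D3:**
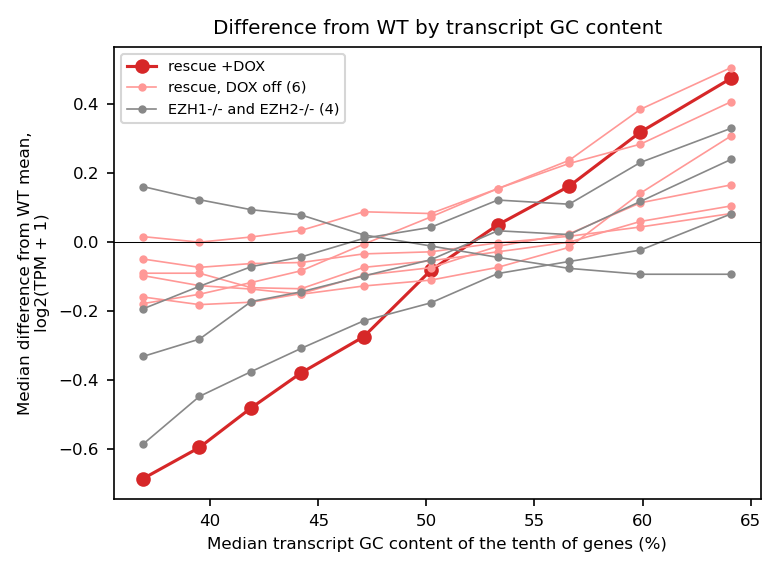
Median difference from the WT mean, log2(TPM + 1), for 10 groups of genes of equal size ordered by transcript GC content (horizontal, %). The dark red line is the rescue with DOX, which runs from -0.69 to 0.47, light red lines are the 6 withdrawal samples and grey lines the 4 EZH1-/- and EZH2-/- samples.

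Of the 284 lower genes, 140 (49.3%) were below both WT samples in each of the 6 withdrawal samples too, and 144 reached the lower WT sample in at least 1 of them. The first held for 13.4% of measured genes, but the same WT samples chose the 284, which raises their share by construction. The first kind includes genes that were nearly silent in the rescue line whether or not DOX was present. Among 21151 genes with a TPM of 1 somewhere in the series, 67 (0.317%) were lower in all 7 samples of the line than in each of the 12 others, and 41 (0.194%) were higher. By 3-fold or more, 4 genes were lower (0.0189%) and 0 higher, so HENMT1, TSPYL5, ACOT2 and CAT were the genes with the clearest gap. Of the 67, 19 were among the 284.

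HENMT1, the methyltransferase that protects the 3′ end of piRNAs, was listed at 0 in all 7 samples of the line and was at 6.39 and 7.53 TPM in WT and up to 16.42 TPM in the other lines. CAT, catalase, which breaks down hydrogen peroxide, was at 0.2 TPM in the rescue sample against 14.38 and 13.17 in WT, a difference of -3.62. It stayed at or below 0.35 TPM in the 6 withdrawal samples, while the 12 other samples ranged from 5.32 to 49.9 TPM. ACOT2, a mitochondrial acyl-CoA thioesterase, was at 0.35 TPM against 9.65 and 13.49 in WT and did not pass 1.1 TPM in the line. It has close paralogs next to it, so that its reads may be split between copies. TSPYL5, a nucleosome assembly protein family member, was at 0.05 TPM against 4.89 and 5.87.

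The promoters of HENMT1, CAT and ACOT2 and that of CBR1, which follows, are shown because the first 3 had a 3-fold gap and CBR1 had the highest WT level of the called genes low throughout the line; TSPYL5 is not shown. Each run is the 250 bases before the RefSeq start (GRCh38.p14; the authors' build was GRCh38), 5′ to 3′ on the gene's strand, with CG dinucleotides in capitals.
HENMT1, chr1:108661475-108661724, minus strand: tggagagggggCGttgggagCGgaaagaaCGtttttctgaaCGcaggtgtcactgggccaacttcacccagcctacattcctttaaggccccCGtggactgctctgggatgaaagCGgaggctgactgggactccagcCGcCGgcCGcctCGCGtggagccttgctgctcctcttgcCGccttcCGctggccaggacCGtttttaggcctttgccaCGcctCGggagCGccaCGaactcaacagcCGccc
CAT, chr11:34438684-34438933, plus strand: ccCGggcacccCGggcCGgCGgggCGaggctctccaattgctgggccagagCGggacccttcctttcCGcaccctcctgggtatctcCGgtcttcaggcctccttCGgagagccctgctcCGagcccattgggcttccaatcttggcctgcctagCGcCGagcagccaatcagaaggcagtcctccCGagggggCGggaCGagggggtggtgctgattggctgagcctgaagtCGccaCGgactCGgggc
ACOT2, chr14:73568809-73569058, plus strand: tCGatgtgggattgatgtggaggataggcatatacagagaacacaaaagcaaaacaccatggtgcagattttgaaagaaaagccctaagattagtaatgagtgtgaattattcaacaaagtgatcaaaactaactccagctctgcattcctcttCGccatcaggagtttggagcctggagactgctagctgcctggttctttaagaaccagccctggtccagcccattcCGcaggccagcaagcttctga
CBR1, chr21:36069774-36070023, plus strand: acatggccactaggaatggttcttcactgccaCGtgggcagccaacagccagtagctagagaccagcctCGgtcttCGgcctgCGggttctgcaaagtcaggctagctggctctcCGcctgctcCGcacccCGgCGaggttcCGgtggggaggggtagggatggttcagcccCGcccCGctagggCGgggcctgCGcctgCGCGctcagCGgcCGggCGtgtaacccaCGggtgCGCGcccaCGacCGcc
These windows held 19, 18, 3 and 23 CG dinucleotides, with a GC content of 63.6%, 68.8%, 46.0% and 69.6%. The CBR1, CAT and HENMT1 windows were CpG-rich and the ACOT2 window was not. Over windows that also took in 50 bases past the start, the 170 lower protein-coding genes with a promoter sequence (80.6% of 211) had a median of 24 CG dinucleotides, against 26 for 11021 measured protein-coding genes (80.8%). Too few of the higher genes had one (74.3% of 35) for the same check, which is void for them.

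Outside the 3-fold gap, several abundant genes were low through the line. CBR1, a carbonyl reductase, was at 2.89 TPM in the rescue sample and at 119.97 and 107.43 in WT, a difference of -4.88. The withdrawal samples were lower still, at 0.44 TPM or less. CBR1 was also lower in the EED-/- samples, at 24.17 and 10.67 TPM, and the rescue sample was below these as well. S100A6, a calcium-binding protein, was at 1.12 TPM against 58.99 and 46.34 in WT, a difference of -4.65. In the EED-/- samples S100A6 was at 1521.39 and 1390.88 TPM, far above WT, whereas in the withdrawal samples it did not pass 13.67 TPM. PYURF was at 2.16 TPM against 60.35 and 56.26, with 0 to 11.68 TPM after withdrawal, but its sum with the nearby HERC3 was 42.15 TPM against 61.27 and 57.64. The co-chaperone DNAJA4 was at 0.08 TPM against 7.26 and 4.1, the membrane protein MALL at 0.65 against 8.57 and 8.75, and the G-protein subunit GNA14 at 0.91 against 20.19 and 7.49. The tRNA pseudouridine synthase relative PUS7L was at 0.04 TPM against 4.67 and 5.03 and the zinc finger gene ZNF354C at 0.04 TPM against 3.91 and 4.82.

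**Figure D4:**
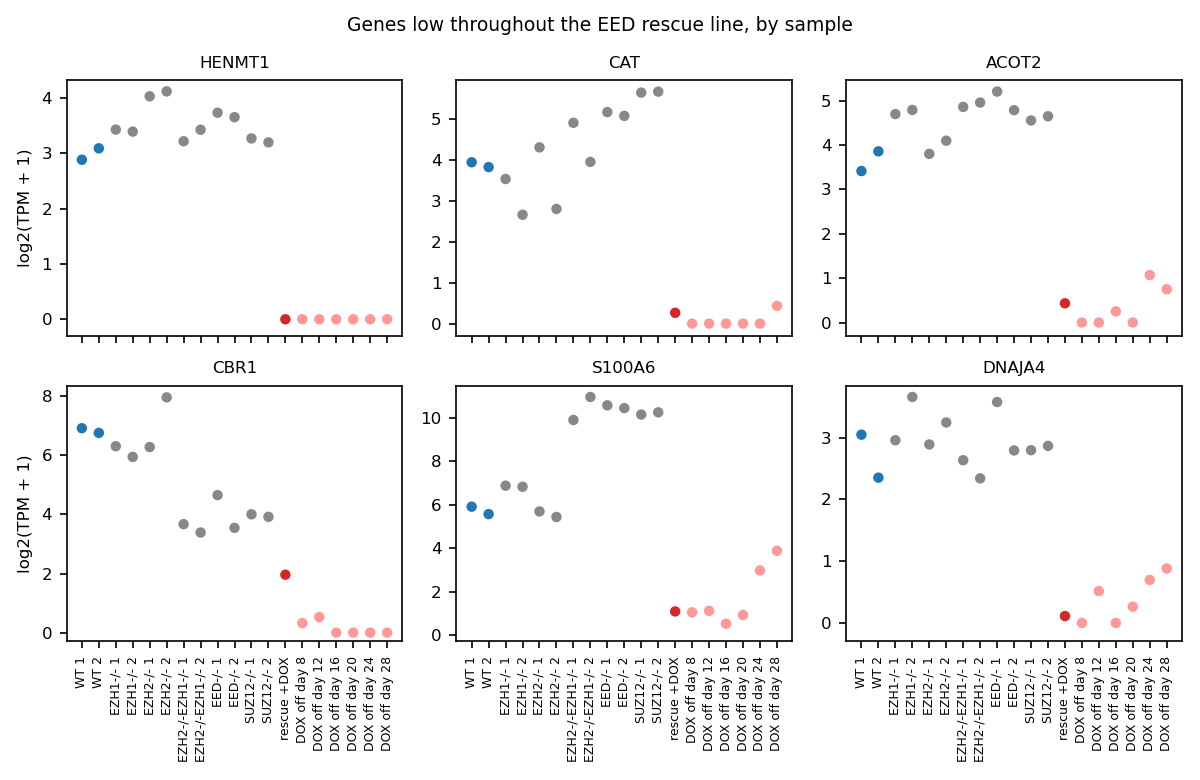
Levels of HENMT1, CAT, ACOT2, CBR1, S100A6 and DNAJA4, log2(TPM + 1), in the 19 samples; blue points are WT, grey points knockout lines, the dark red point the rescue with DOX and light red points the rescue line after withdrawal. In each panel the 7 samples of the rescue line lie below the 12 others.

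Genes higher throughout the line had small gaps. AC138035.2 had the largest, 0.95 on the log2 scale, and was at 26.21 TPM in the rescue sample against 11.87 and 9.15 in WT. RP11-841O20.2, which lies on the opposite strand of ERO1L, was at 16.09 TPM against 0 and 1.91, with a gap of 0.71. The splicing factor SF3A2 was at 161.28 TPM against 88.23 and 83.85 and the kinase PAK4 at 71.14 against 49.69 and 51.24. Among the next were NPRL3, RSPO4, FAM127B, BAG6 and DCP1B, with gaps of 0.23 to 0.28. FXYD5, a regulator of the sodium pump, was at 593.62 TPM against 189.06 and 185.23 in WT. It was at 205.94 TPM or more in all 7 samples of the line, just above the 12 others. The 41 genes had a median GC content of 56.7%, beside 48.5% for measured genes, and 2 of them were called. After centring on GC content and length, FXYD5 went from 1.66 to 1.16, short of the threshold, and RP11-841O20.2 from 3.32 to 3.78.

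A second group was low only in the DOX-kept sample. Relative to each of the 18 other samples, 36 genes (0.17%) were lower by at least 2-fold and 7 (0.0331%) higher, of which EED alone passed 3-fold. The 36 had a median GC content of 40.2% and a median transcript length of 5336 bases, beside 48.5% and 3518 bases for measured genes, and 23 of them were called lower than WT. The long noncoding RNAs AC092669.3 (2.69 TPM against 49.04 and 48.71 in WT) and CTC-340A15.2 (listed at 0 against 6.21 and 7.66) lay 3-fold or more below each other sample. PCMTD2 was at 7.17 TPM against 29.38 and 31.59, the kinase TNIK at 3.33 against 24.04 and 22.03, and ACTR3, of the actin-nucleating Arp2/3 complex, at 35.31 against 141.08 and 151.35. LINC00504 was at 6.04 TPM against 48.09 and 53.75, and IL15 at 0.18 against 7.28 and 7.62.

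Further lower genes were above the DOX-kept sample in each withdrawal sample. QKI, an RNA-binding splicing regulator, was at 11.49 TPM against 107.24 and 101.05 in WT, a difference of -3.07, and at 71.51 to 99.84 TPM after withdrawal. Of the other 18 samples the lowest, 1 without EZH2 and EZH1, was at 19.26 TPM. The sheddase ADAM10 was at 16.5 TPM against 90.8 and 100.4, with 40.06 to 158.2 TPM after withdrawal. ENAH, an actin regulator, was at 41.26 TPM against 234.51 and 246.38, with 114.11 to 307.6 TPM after withdrawal. KIAA1328 was at 4.2 TPM against 45.93 and 55.3, with 18.38 to 56.18 TPM. METTL14, a subunit of the N6-methyladenosine writer, was at 3.99 TPM against 27.72 and 26.47, and the splicing-associated U2SURP at 24.47 against 138.31 and 143.43. After withdrawal these 2 stayed under WT, at up to 22.3 and 87.98 TPM. Their transcripts were all below 48.5% GC, and centring on GC content and length reduced the difference of QKI to -2.25, that of ADAM10 to -1.60 and that of METTL14 to -1.71.

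The 2 largest drops, and several of the next, were in noncoding genes that lie over others. RP11-161H23.5, on the opposite strand of TUBA1C, was listed at 0 in the rescue sample against 258.39 and 245.61 TPM in WT, and RP11-70C1.3 at 0 against 48.86 and 52.2. RP11-701H24.3 (21.64 and 23.21 TPM in WT), RP11-638I2.6 (23.02 and 12.87), RP1-20B21.4 (14.31 and 18.19) and the ion channel gene ZACN (12.16 and 15.12) were also listed at 0. Of the 284 lower genes 45 were listed at 0, which an estimated TPM can also give when reads are assigned to an overlapping gene, and 128 (45.1%, beside 44.9% of measured genes) overlapped another gene expressed in the series. RP11-553A10.1 was at 0.3 TPM against 21.79 and 21.91, RP11-346D14.1 at 5.61 against 63.03 and 71.51, and TAF9B, a TFIID-related factor, at 1.42 against 21.83 and 28.35. TAF9B ran from 0.5 to 24.09 TPM among the EZH1-/- and EZH2-/- samples, so that the rescue sample lay within their range. Nearest the threshold, XRCC2 was called lower at 6.49 TPM (21.47 and 27.88 in WT), while G3BP2 was not at 73.79 TPM (223.18 and 262.04).

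Higher genes were fewer and lower in level. The immediate-early transcription factors FOS and FOSB were at 113.14 TPM (14.33 and 11.94 in WT) and 17.67 TPM (0.69 and 0.57), differences of 3.02 and 3.52. FOS ranged from 7.73 to 30.59 TPM in the EZH1-/- and EZH2-/- samples and from 27.34 to 1061.52 TPM after withdrawal, and FOSB from 0.26 to 0.56 TPM in the former. HERC3, a ubiquitin ligase gene, had the largest difference, 4.26, at 39.99 TPM against 0.92 and 1.38 in WT. In the knockout lines, however, HERC3 ran from 2.08 to 89.18 TPM, so that WT and not the rescue sample was at the edge of the series. HERC3 and PYURF, which lie close together on chromosome 4, moved in opposite directions, and their summed level was 42.15 TPM in the rescue sample and 61.27 and 57.64 in WT. They also traded places between the 2 samples of EZH2-/-, where HERC3 was at 3.24 and 43.12 TPM and PYURF at 62.33 and 19.9 TPM. Whether reads were assigned differently between the pair was not tested, and their separate values are uncertain. MT1G, a metallothionein, was at 116.08 TPM against 33.4 and 7.67, where the 2 WT samples were themselves far apart. The rescue sample lay inside the 73.65 to 739.23 TPM of the EZH1-/- and EZH2-/- samples, and against these and WT together the difference was 0.38 in place of 2.76. The mesenchymal factor TWIST2 was at 6.12 TPM against 0.08 and 0.41, the major vault protein MVP at 11.86 against 2.15 and 1.05, and CYP26A1, which degrades retinoic acid, at 18.09 against 3.77 and 4.34.

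The other genes among the 15 largest differences were mostly noncoding or copies of others. RP11-265N6.1 was at 15.3 TPM, AC110615.1 at 9.28 TPM and CTD-3214H19.16 at 4.79 TPM, all listed at 0 in both WT samples. The ID that the files call RPL41 among these, at 6.8 TPM, is annotated as a processed pseudogene and is not the ribosomal protein gene. NPIPA8, of a multicopy family, was at 11.57 TPM against 0.38 and 0.69, and AC139099.5 at 7.38 against 0.12 and 0. RP11-801F7.1 (9.5 TPM), CTD-3193O13.11 (16.72 TPM) and RP11-141O15.1 (5.45 TPM) lie opposite CCNYL1, PRR36 and EEF2K. In all, 35 of the 58 higher genes (60.3%) overlapped another expressed gene, beside 44.9% of measured genes. IDUA, at 5.22 TPM against 1.07 and 0.38, was just past the threshold, and RP11-35O15.1, at 4.31 against 0.37 and 0.78, just short of it.

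Genes that differ without EED were taken from the 2 EED-/- samples against the 4 EZH1-/- and EZH2-/- samples. These include neither WT nor the rescue line. The study reports that EED-/- cells differentiated and that EZH1-/- and EZH2-/- cells stayed undifferentiated. Loss of EED and differentiation therefore cannot be told apart in the list. By limma, at an adjusted p of 0.01 or less and 3-fold or more, 3198 genes were higher (18.2% of 17557) and 1111 lower (6.33%) without EED. Of the 3198, 2206 were measured here and 11 were higher in the rescue sample than in WT (0.499%, beside 0.365% of measured genes) and 37 lower (1.68%, beside 1.79%). Their median difference was -0.24 and that of measured genes -0.15, and 76 (3.45%) were at least 1 above WT on the log2 scale, beside 4.17% of measured genes. The other 992 stayed under 1 TPM in all 3 samples. The median level of the 3198 was 1.64 in the rescue sample, 1.81 and 1.83 in WT and 4.78 in EED-/-, all log2(TPM + 1). After centring on GC content and length the median difference was 0.01, so its sign depended on the scale, and it was small beside the step to EED-/-.

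The 11 that were higher were FOS, FOSB, MVP, CYP26A1, IDUA, RP11-390P24.1, IGF2, COL3A1, PPP1R13L, HSD17B14 and RP3-510D11.2. On the log2 scale 8 of them were nearer the EED-/- mean than the WT mean, and IDUA, IGF2 and COL3A1 were nearer WT. The 11 were chosen as higher than WT and as higher without EED, which by construction moves them toward the EED-/- level. IGF2, an imprinted growth factor, was at 3.74 TPM against 0.38 and 0.27 in WT, but at 368.1 and 539.8 TPM in EED-/-. COL3A1, a fibrillar collagen, was at 2.93 TPM against 0.11 and 0.22, and at 2070.11 and 1873.41 TPM in EED-/-. After withdrawal IGF2 ran from 1.36 to 2717.78 TPM and COL3A1 from 0.3 to 2534.23 TPM. Closest to the EED-/- level were PPP1R13L, FOSB and FOS, with FOS at 143.66 and 129.72 TPM, FOSB at 25.75 and 13.17 TPM and PPP1R13L at 36.75 and 34.64 TPM in EED-/-, beside 35.27 TPM in the rescue sample. RP11-390P24.1, at 9.3 TPM against 1.61 and 2.05 in WT, lay between the EED-/- samples (10.86 and 4.74 TPM). HSD17B14 was at 28.17 TPM against 7.63 and 7.91 in WT and 49.02 and 41.23 in EED-/-. After centring on GC content and length, PPP1R13L, HSD17B14, IDUA, RP3-510D11.2 and IGF2 fell short of the threshold, at 1.15 to 1.55. FOS, FOSB, MVP, CYP26A1 and COL3A1 were at 1.85 to 3.34, and RP11-390P24.1 had no centred value.

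Of the 1111 genes lower without EED, 1104 were measured, and 40 of these were lower in the rescue sample than in WT (3.62%, beside 1.79% of measured genes) and 2 higher. They include ECHDC3 (1.26 TPM against 23.19 and 17.89 in WT), which was at 0 and 3.25 TPM in EED-/-, and PIWIL2, a piRNA-binding protein of the germline, at 0.8 TPM against 9.56 and 7.7 and at 0.21 and 0.52 TPM in EED-/-. UHRF1, which brings DNMT1 to hemimethylated DNA, was at 12.55 TPM against 41.13 and 43.91, and the chromatin protein DEK at 81.53 against 261.37 and 285.26. The noncoding LINC00371 was at 8.91 TPM against 61.4 and 64.59, and at 0.56 and 0.58 TPM in EED-/-. After centring on GC content and length UHRF1 was at -1.76 and DEK at -1.03, short of the threshold. The median difference of the 1104 was -0.08. The 1111 had a median level of 4.85 in each WT sample, log2(TPM + 1). A gene near 1 TPM in WT cannot fall 3-fold on this scale, so the share of 3.62% and that of measured genes are not like for like.

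Of the gene lists, 6 members in all were higher and 25 lower. Counts of called members stand beside 0.365% higher and 1.79% lower among all measured genes. Counts of list members below the WT mean stand beside 58.5% of all measured genes, and counts above it beside 41.5%. The 39 HOX genes did not reach 1 TPM in any of the 3 samples. The highest was 0.42 TPM in the rescue sample and 0.19 TPM in WT, against 115.88 TPM after withdrawal. Neither the mesoderm (7 measured), the endoderm (6) nor the trophoblast and amnion list (7) had a called member. ACTA2 was at 6.03 TPM against 1.9 and 1.88, KRT18 at 694.94 against 640.53 and 487.28, and KDR at 38.46 against 50.88 and 66.09. In the ectoderm list NKX1-2, a homeobox gene, was lower, at 5.74 TPM against 20.28 and 25.07. SIX6, at 2.59 TPM against 0.39 and 0.16, did not pass.

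Of 32 pluripotency genes none was called, yet 24 were below the WT mean, with a median of -0.48 and of -0.36 after centring on GC content and length. POU5F1 was at 2916 TPM against 2530.98 and 2428.15 and LIN28A at 617.29 against 641.47 and 778.88. L1TD1, at 192.72 TPM against 557.36 and 633.53, PODXL, at 201.29 against 587.94 and 540.24, and NANOG, at 54.09 against 140.42 and 97.47, were also below the 4 EZH1-/- and EZH2-/- samples. So were POU5F1 and LIN28A, for which the lowest of those 4 samples were at 3317.18 and 689.37 TPM. Of the other markers of undifferentiated cells, DNMT3B, TDGF1 and DPPA4 were below them too, and SOX2 was within their range. In the list of 11 measured naive pluripotency genes none was called, and UTF1 was at 25.84 TPM against 8.22 and 7.15 and inside the 21.17 to 28.8 TPM of those 4 samples.

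All 7 measured DNA methylation genes were below the WT mean, with a median of -1.23 (-0.80 after centring), and UHRF1 was the called one. The methyltransferase DNMT3B was at 433.69 TPM against 845.71 and 840.39, and the demethylating enzymes TET1 and TDG were at 6.09 TPM (18.31 and 16.93) and 20.96 TPM (49.45 and 59.76). DNMT1, at 82.12 TPM, was nearer its WT level of 104.17 and 106.61.

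Of 20 cholesterol synthesis genes 19 were below the WT mean, with a median of -0.83 (-0.63 after centring), and 2 were called. The sterol carrier STARD4, one of them, was at 7.07 TPM against 24.44 and 28.68. HMGCS1 was at 83.45 TPM against 252.13 and 236.23, and ACAT2 at 105.5 against 256.1 and 256.85. HMGCS1 was at 60.37 to 312.84 TPM in the EZH1-/- and EZH2-/- samples, so these levels vary between lines. STARD4 fell short of the threshold after centring, at -1.06.

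Among 461 zinc finger genes 16 were lower (3.47%, beside 1.79% of measured genes) and ZNF558 was higher. The median was -0.48 and moved to -0.08 after centring on GC content and length, beside 0 for measured genes. ZNF717 was at 0.2 TPM against 5.82 and 8.36, ZNF292 at 1.61 against 11.29 and 14.58 and ZNF714 at 6.47 against 28.64 and 31.33. ZNF726 (0.32 against 5.61 and 5.01), ZNF502 (0 against 2.7 and 2.6) and ZNF585B (1.15 against 6.81 and 6.1) were low after withdrawal too, at no more than 0.69, 0.11 and 2.21 TPM. The other 9 were ZNF268, ZNF594, ZNF732, ZNF573, ZNF724P, ZNF860, ZNF737, ZNF286B and ZNF670, with differences of -2.14 to -1.71, and ZNF354C is given above. After centring, ZNF717, ZNF726, ZNF724P, ZNF286B and ZNF354C were at -2.28 to -1.62 from the WT mean. The rest of the 16 fell short of the threshold, at -1.52 to -0.87, so the share of 3.47% does not hold after centring. ZNF558 was at 5.39 TPM against 0.02 and 0.82. Many of these genes have close copies among which reads can be split.

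Of 33 measured replication-dependent histone genes, which lack poly(A) tails, 30 were below the WT mean, with a median of -0.77 (-1.0 after centring). Their summed level was 95.2 TPM, and in the WT samples, which were themselves apart, 154.2 and 263.8 TPM. HIST1H2BJ and HIST4H4 were called and were listed at 0. Among 8 measured germline genes PIWIL2 and TEX15 were lower, TEX15 at 0.83 TPM against 5.15 and 6.09. The WNT co-receptor LRP6 was the called member of 24 WNT pathway genes, at 4.52 TPM against 16.5 and 18.5. TEX15 and LRP6 fell short of the threshold after centring, at -0.97 and -1.03, and PIWIL2 was at -2.02. FOS was the called member of 25 FGF pathway genes, IGF2 of 26 imprinted genes and COL3A1 of 49 matrix genes. Of these, IGF2 fell short of the threshold after centring, at 1.55. SNRPN, an imprinted gene, was at 2001.07 TPM against 1203.9 and 1168.12 without being called.

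No member was called in the lists of PRC1 (24 measured, median -0.12), BMP and TGF-beta (34, -0.12), clustered protocadherins (31, -0.53), mitochondrial ribosome (76, -0.02), ATF4 targets (28, 0.26), p53 targets (22, 0.24), glycolysis and hypoxia (30, -0.06), MHC class I (14, 0.22), interferon-stimulated (15, 0.08), cell cycle (32, -0.14) and 20q11.21 genes (18, -0.42). RNF2, the main ubiquitin ligase of PRC1, was at 38.37 TPM. PCGF2 was at 107.17 TPM against 61.22 and 54.85 in WT, a difference of 0.88. It is among the 41 genes that were higher in all 7 samples of the line than in each of the 12 others. Of 81 ribosomal protein entries 59 were above the WT mean, with a median of 0.22. CDKN1A, a p53 target and inhibitor of cell division, was at 45.77 TPM against 6.15 and 21.35, where the WT samples differed from each other by more than the threshold.

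By chromosome the median difference ran from -0.48 on chromosome 13 (265 measured genes) to 0.24 on chromosome 19 (1224 genes), and over 23 chromosomes it ordered with median transcript GC content (rank correlation 0.945, a description). After centring on GC content and length the medians lay between -0.12 and 0.06.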

How the data were processed

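RNA of H1 lines had been sequenced from TruSeq libraries, and the authors aligned the reads with Bowtie2 to GRCh38 transcripts and estimated gene levels with RSEM, per the study's methods. These also name EDASeq, which can adjust for GC content, for normalised tag counts, and whether it touched the deposited values is not given in the sources used here. The deposited values are TPM per gene, 1 table a sample, with no counts, so depth is unknown and no count test was run. Whether strand was used is not given in the sources used here. Samples were grouped by the labels. Nothing states that the 2 WT samples came from separate cultures, so their spread may be technical. No 2 samples held identical values. Tables were joined on Ensembl ID, and values were used as log2(TPM + 1). The rescue sample with DOX was described against both WT samples without a test. A gene was called at a 3-fold difference from each, with a TPM of at least 1 in 1 of the 3 samples. Genes that differ without EED came from limma 3.58.1 in R 4.3.3, with trend and robust empirical Bayes and Benjamini-Hochberg adjustment. The 3-fold rule and the centring were tried on simulated data, and limma was not. Coordinates, transcript GC content and length came from GENCODE release 44 (99.0% of measured genes), and promoters from RefSeq. Centring used 20 bins of GC content and then of length. Named genes were EED and PRC2 members, the 15 largest differences in each direction, called list members, the most abundant of each list, the 10 genes of largest gap in the line and those nearest the threshold. Other genes named were chosen after their values were seen, and Y-chromosome genes are not named. Members and lists were chosen with earlier results of these data known. Alternatives were another pseudocount, fold, filter, scaling and reference, leaving out a WT sample, and the centring. The list of mitochondrially encoded genes had no member in the files. Single values of 2 genes that the rule would name are not reported here.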

Additional observations from a re-analysis of the deposited data

How the results depend on the processing

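The direction held for the 61 single genes recomputed under 6 alternatives, except that 2 without annotation had no centred value. These genes were chosen for lying 3-fold off both WT samples in 1 direction. Leaving out a WT sample or changing the pseudocount therefore could not reverse them. Counts of called genes depended on the settings. Higher and lower genes numbered 239 and 853 with a pseudocount of 0.1, 394 and 1362 at 2-fold, and 16 and 87 with 6 reference samples. Leaving out a WT sample gave 96 to 186 higher and 366 to 508 lower genes, which fewer samples to differ from makes larger, and centring on GC content and length gave 134 lower. The mean correlation with WT was 0.9388 and became 0.9328 where either sample reached 1 TPM. In the whole line 41 higher and 67 lower genes did not overlap the other lines without a fold, and 14 lower passed with a pseudocount of 0.1 and 16 against 6 samples. The median of genes higher without EED was -0.299 with a pseudocount of 0.1 and 0.013 after centring, and that of genes lower without EED was -0.118 to -0.062 without a WT sample. Called list members numbered 11 to 12 higher and 28 to 54 lower without a WT sample, and 8 were lower after centring. After centring, chromosome 13 was at -0.053 and chromosome 19 at 0.007. The causes of these shifts were not tested beyond the settings themselves. No paired analysis was possible because the rescue line has 1 sample with DOX and the comparison rests on no test.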
